A study of Mus musculus with 2 samples.

Results

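Heat shock chaperones are proteins that help other proteins fold, and 10 of their genes were followed here in T cells from the pancreatic islets of NOD mice, a strain that develops autoimmune diabetes on its own. The genes were Hspa1a, Hspa1b, Dnajb1, Hsph1, Dnaja1, Hspa8, Hsp90aa1, Hsp90ab1, Hspd1 and Hspe1. They were chosen by name from the 27998 genes counted in each library, and all 10 were detected in every group described. Together they made up 0.435% of the UMIs (unique molecular identifiers, each standing for 1 captured transcript) of the kept wild-type cells and 0.456% of those of the kept knockout cells.

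The wild-type library came from NOD.Foxp3-EGFP mice and the knockout library from NOD.Tnfrsf9-/-.Foxp3-EGFP mice, which lack CD137 in every cell type and not in Tregs alone. CD137 (4-1BB) is a costimulatory receptor that activated T cells switch on, and Tnfrsf9 is its gene. Mice of both genotypes carried the Foxp3-EGFP reporter, which marks regulatory T cells (Tregs) with green fluorescence, and both were untreated. Each library was made from the islets of 6 females aged 9 to 10 weeks, pooled before sorting, and CD8 T cells and GFP+ Tregs sorted from that pool were loaded together. With 1 library per genotype there was no replicate, no test was possible, and the knockout and its library cannot be told apart. The intervals below are exact 95% intervals for counting error only, which do not cover the spread between mice, and UMIs are counted once per molecule.

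The 2714 wild-type and 2915 knockout cells used had 200 to 5000 detected genes each and no more than 20% of their UMIs from mitochondrial genes. A cell was taken as a CD8 T cell with at least 2 UMIs of Cd8a and Cd8b1 and none of Cd4 or Foxp3, which gave 891 wild-type and 1200 knockout cells. A cell was taken as a Treg with no Cd8a or Cd8b1 UMI and at least 1 UMI of Cd4, Foxp3, Il2ra or Ikzf2, which gave 1552 and 1444 cells. The cytotoxic granule gene Nkg7 had a UMI in 97.2% and 94.4% of the CD8 T cells. Among markers of Tregs, Ctla4, whose product restrains costimulation, had one in 94.6% and 93.6% of the Tregs, but the transcript of the defining factor Foxp3 was seen in only 13.2% and 19.5% of them. Median depth was 6076 and 5275 UMIs per CD8 T cell and 4302 and 4308.5 per Treg, wild type first. The libraries shared 16 barcodes.

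Activated cells were taken as those with at least 1 Tnfrsf9 UMI, and all others are called other cells. Positive cells were 26.9% of wild-type and 11.8% of knockout CD8 T cells (exact binomial intervals 24.0 to 30 and 10.1 to 13.8) and 50.2% and 29.6% of Tregs (47.7 to 52.7 and 27.3 to 32.1). Knockout cells still had Tnfrsf9 transcripts, at 32.0 CPM (UMIs of the gene in each 1000000 UMIs of the cells) in CD8 T cells against 106 in wild-type ones and at 110 against 337 in Tregs, so the class rests on the deleted gene and the positive and other cells need not be the same kinds of cell in both genotypes. Positive cells were also deeper, with medians of 9706 against 5609 UMIs in wild-type and 8796 against 5160 in knockout CD8 T cells, and of 5479 against 3486 and 5429 against 3847 in Tregs. Cells with at least 2 UMIs of proliferation genes (Mki67, Top2a, Birc5, Cdk1 and Ube2c) were 42.1% of positive and 18.0% of other wild-type CD8 T cells, 28.2% and 8.70% in the knockout, 17.7% and 8.67% of wild-type Tregs and 22.0% and 12.9% of knockout Tregs. The genotypes differed in makeup as well: 48.0% of wild-type and 71.3% of knockout CD8 T cells, and 59.3% and 67.0% of Tregs, had a UMI of the resting-cell list (Ccr7, Lef1 and S1pr1, genes of naive and recirculating T cells). Apart from Cst3 and Pecam1, which many of these T cells express, at least 2 UMIs of another cell type's markers were found in 9.20% and 5.33% of CD8 T cells and 4.51% and 6.37% of Tregs. The part of any of these in the results below was not tested except where a value without such cells is given.

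When proteins unfold, heat shock factor 1 (Hsf1) binds heat shock elements, inverted repeats of GAA in the promoters of chaperone genes, and their transcription rises. Chaperones of the HSP70 family hold unfolded stretches of protein in a cycle of ATP binding, started by J-domain partners (HSP40) and reset by nucleotide exchange factors such as HSP110, while HSP90 matures kinases and steroid receptors, and HSP60 with its lid HSP10 folds proteins inside mitochondria. T cells make more of many of these proteins when they grow after antigen contact, and warm digestion of tissue is known to induce the stress-responsive ones. The islets of this study were released by enzyme digestion before the cells were stained in the cold.

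The heat shock elements near the transcript starts of the members are shown because these genes share this regulatory input. Promoter windows from 250 bases before to 50 bases after the start were available from RefSeq (GRCm38.p6) for 7 of the 10 members, and none was used for Hspa8, Hsp90aa1 and Hsp90ab1. The 2-unit letters TTCNNGAA or GAANNTTC, each its own reverse complement, lay in the windows of 6 of the 7 members, all but Dnajb1, and in 15.1% of all 32851 windows. The 3-unit letters GAANNTTCNNGAA or TTCNNGAANNTTC, which are reverse complements of each other and contain the 2-unit letters, lay in those of Hspd1, Hspe1 and Hsph1 and in 0.603% of all windows. The 7 members had 12 windows, as some have several transcript starts. A member was counted when any of its windows matched, whereas the shares are of single windows, so the 2 are not directly comparable. Capitals mark the matched letters and each sequence is written 5′ to 3′ on the strand of its gene.
Hspa1a, chr17:34972242-34972271, minus strand: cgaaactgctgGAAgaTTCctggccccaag
Hspa1b, chr17:34959324-34959353, minus strand: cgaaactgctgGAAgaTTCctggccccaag
Dnaja1, chr4:40722333-40722362, plus strand: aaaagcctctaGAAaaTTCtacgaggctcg
Hsph1, chr5:149636279-149636308, minus strand: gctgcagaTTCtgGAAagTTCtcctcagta
Hspd1, chr1:55088053-55088082, minus strand: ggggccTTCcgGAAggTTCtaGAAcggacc
Hspe1, chr1:55088053-55088082, plus strand: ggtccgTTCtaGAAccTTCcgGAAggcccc
The 2 copies of Hspa1 carried the same element at the same distance, −104 to −97 bases from the start, and their windows were identical at 296 of 300 bases. Hspd1 and Hspe1, which point away from each other, shared 1 element read on opposite strands. The Hsph1 match lay after the transcript start used, at bases 15 to 27 from it. A match is only a run of letters, and no binding was measured.

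The sum of the 10 genes differed little between the genotypes. In CD8 T cells it was 4586 CPM in the wild type (4536 to 4636) and 4823 in the knockout (4774 to 4871), a log2 ratio of knockout over wild type of 0.07 (0.05 to 0.09). In Tregs it was 4069 CPM (4028 to 4111) and 4300 (4255 to 4345), a log2 ratio of 0.08 (0.06 to 0.10). Hspa8 and Hsp90ab1 together supplied between 58.3% and 61.8% of the members' UMIs in the 4 groups. Because transcripts were counted at their 3′ ends, levels are compared within a gene. A summed level also cannot tell fewer expressing cells from less RNA per cell, so the share of cells with a UMI is given after thinning every cell to 2000 UMIs. That step left out 17 and 16 CD8 T cells and 76 and 55 Tregs of the wild type and knockout. Every cell type makes these chaperones, so no class lacking them could serve as a background for these shares.

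**Figure D1:**
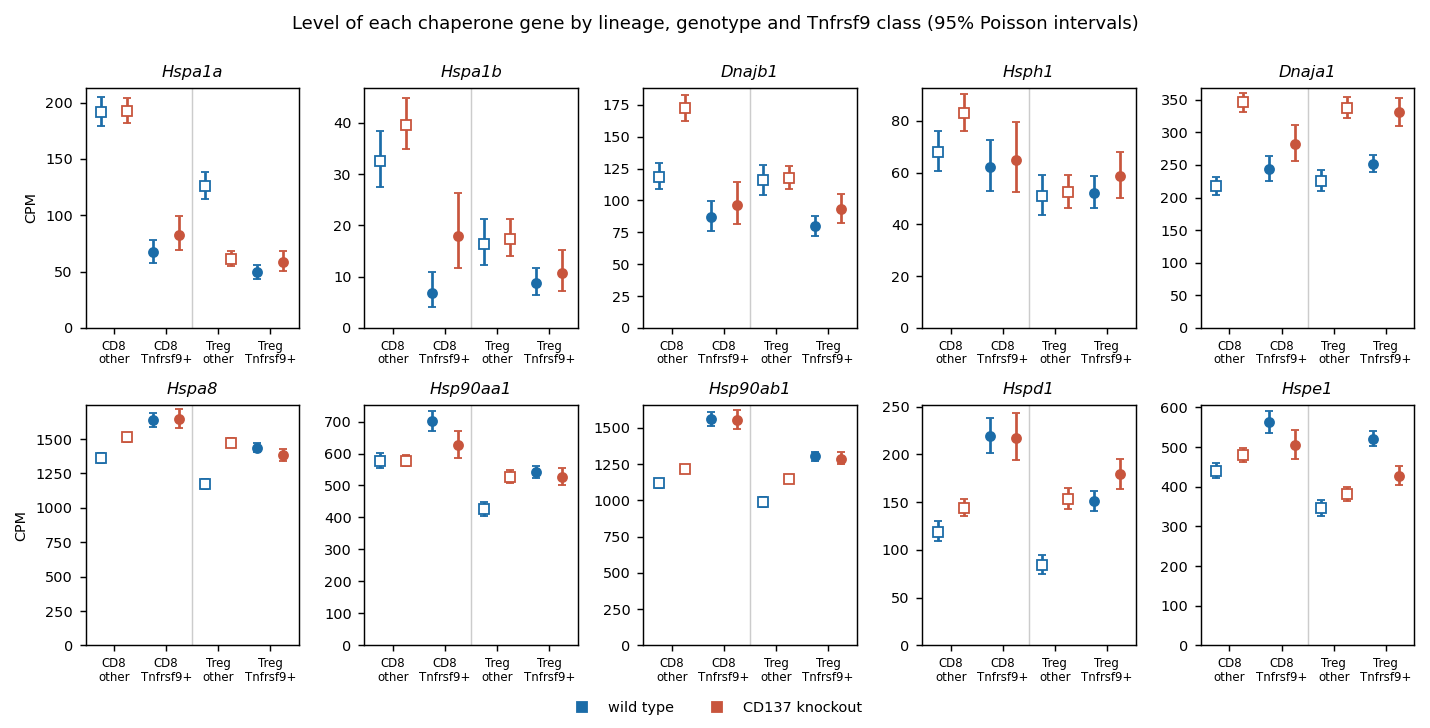
Level of each gene (CPM, linear axis from 0, 1 panel per gene) in CD8 T cells and Tregs of both libraries, wild type in blue and knockout in red. Filled circles are Tnfrsf9-positive cells, open squares are the other cells, and bars are exact Poisson 95% intervals. Dnaja1 is higher in each knockout group than in any wild-type group, while Hspa1a is highest in the other CD8 T cells of both genotypes.

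Dnaja1 (ENSMUSG00000028410, chr4:40722150-40737149, plus strand), the J-domain partner of the constitutive HSP70, was higher in the knockout in both lineages by nearly the same amount. Hspa8 was so too, but by less, with log2 ratios of 0.07 in CD8 T cells and 0.11 in Tregs. In CD8 T cells Dnaja1 stood at 227 CPM in the wild type (216 to 239) and 334 in the knockout (322 to 347), and in Tregs at 242 (232 to 252) and 335 (323 to 348). Both knockout values lay above both wild-type values, and the lineages of a genotype differed little. The log2 ratio of knockout over wild type was 0.56 in CD8 T cells (0.47 to 0.65) and 0.47 in Tregs (0.39 to 0.55), just under the 1.5-fold used as a call here.

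More cells held a Dnaja1 transcript as well. At 2000 UMIs per cell it was seen in 35.5% of wild-type CD8 T cells (32.3 to 38.7) and 51.4% of knockout ones (48.5 to 54.3). In Tregs it was seen in 34.6% (32.2 to 37.1) and 48.6% (45.9 to 51.3). Without thinning the shares were 70.9% and 82.8% in CD8 T cells and 62.9% and 74.0% in Tregs, and the knockout was higher in each.

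The difference in Dnaja1 held within each Tnfrsf9 class. Among the other cells it was 217 CPM in wild-type and 346 in knockout CD8 T cells and 225 and 337 in Tregs, log2 ratios of 0.67 (0.56 to 0.78) and 0.58 (0.46 to 0.71). Among positive cells it was 244 and 283 CPM in CD8 T cells and 252 and 331 in Tregs, log2 ratios of 0.21 (0.03 to 0.39) and 0.39 (0.27 to 0.51). In the order over the 8 groups of lineage, genotype and class, all 4 knockout groups stood above all 4 wild-type groups. Among the highest 3, the other knockout CD8 T cells and both classes of knockout Tregs, neighbours in the order did not differ beyond counting error, and the same held for neighbours among the 4 wild-type groups. Over 15 alternative choices of cells and scaling the log2 ratio stayed above 0, between 0.21 and 0.72 in CD8 T cells and between 0.39 and 0.64 in Tregs. The lowest value in CD8 T cells, 0.21, was that without cells holding a UMI of the resting-cell list.

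The 4 members grouped here as stress-inducible showed another pattern. Hspa1a (ENSMUSG00000091971, chr17:34969190-34972156, minus strand) and Hspa1b (ENSMUSG00000090877, chr17:34956436-34959238, minus strand) encode the inducible HSP70, Dnajb1 (ENSMUSG00000005483, chr8:83608193-83612653, plus strand) encodes its stress-inducible J-domain partner, and Hsph1 (ENSMUSG00000029657, chr5:149614287-149636376, minus strand) encodes HSP110. Their summed level was 341 CPM in wild-type CD8 T cells (327 to 355) and 447 in knockout ones (432 to 462), against 236 (226 to 247) and 239 (229 to 250) in Tregs. The log2 ratio of knockout over wild type was thus 0.39 in CD8 T cells (0.31 to 0.47) and 0.02 in Tregs (−0.07 to 0.11). The Treg value joins opposite classes: it was 0.22 in positive Tregs (0.07 to 0.36) and −0.31 in the other Tregs (−0.43 to −0.19). In CD8 T cells it was 0.23 in positive (0.04 to 0.42) and 0.25 in other cells (0.16 to 0.33), so the lineages were close in positive cells and apart in the other cells. The difference between lineages was not tested. The sum leaves out Hsp90aa1, a more abundant member that stress can also raise. Hsp90aa1 stood at 624 and 587 CPM in CD8 T cells and 497 and 527 in Tregs, wild type first. The contrast between lineages is therefore that of these 4 genes alone.

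Hspa1a differed in opposite directions. It was 145 CPM in wild-type CD8 T cells (136 to 154) and 173 in knockout ones (164 to 182), but 79.2 in wild-type Tregs (73.5 to 85.3) and 60.5 in knockout ones (55.2 to 66.1). The log2 ratio was 0.25 (0.13 to 0.37) in CD8 T cells and −0.39 (−0.56 to −0.22) in Tregs. In Tregs the lower level was seen in the other cells, where Hspa1a was 126 CPM without and 61.3 with the knockout, a log2 ratio of −1.04 (−1.253 to −0.83). Positive Tregs had 49.5 and 58.9 CPM, a log2 ratio of 0.25 (−0.04 to 0.53) whose interval includes 0. In CD8 T cells the other cells of both genotypes had nearly the same level, 192 and 193 CPM, a log2 ratio of 0.01 (−0.12 to 0.14), and the positive cells had 67.5 and 83.0 CPM, a log2 ratio of 0.30 (−0.05 to 0.64). The difference in all CD8 T cells was therefore not seen within the other cells, which were a larger part of the knockout. Without cells of the resting-cell list its sign turned, to a log2 ratio of −0.089.

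Hspa1b had the fewest UMIs of the 10 genes, with 23.0 CPM in wild-type CD8 T cells and 35.7 in knockout ones and 11.7 and 15.0 in Tregs. Its log2 ratio of 0.64 in CD8 T cells (0.35 to 0.92) was the only one of the 20 that passed 1.5-fold between genotypes, and in Tregs it was 0.36 (−0.03 to 0.75). It rested on 161 and 282 UMIs in CD8 T cells and 104 and 122 in Tregs. The gene models of Hspa1a and Hspa1b lie 9951 bases apart, and 49.3% of the 90-base stretches of the Hspa1a transcript also occur in that of Hspa1b. None of the 411 stretches in the last 500 bases did, which is the end that 3′ libraries read. The 2 genes summed gave log2 ratios of 0.31 (0.20 to 0.42) in CD8 T cells and −0.27 (−0.42 to −0.12) in Tregs.

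Dnajb1 was 107 CPM in wild-type CD8 T cells (99.4 to 115) and 159 in knockout ones (150 to 168), a log2 ratio of 0.57 (0.44 to 0.70). In Tregs it was 93.7 and 109 CPM, a log2 ratio of 0.22 (0.08 to 0.36). Both lineages were higher in the knockout, CD8 T cells more so. The thinned share of cells with a Dnajb1 UMI was 20.1% and 28.1% in CD8 T cells and 20.4% and 22.3% in Tregs. The log2 ratio for CD8 T cells was 0.034 without cells of the resting-cell list, so its size rests on those cells. Hsph1 was 65.9 and 79.8 CPM in CD8 T cells, a log2 ratio of 0.28 (0.10 to 0.45), and 51.7 and 54.6 in Tregs, a log2 ratio of 0.08 (−0.11 to 0.27) whose interval includes 0.

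The 3 abundant cytosolic members, which cells make without stress, differed between the genotypes by 0.11 or less on the log2 scale. Hspa8 (ENSMUSG00000015656, chr9:40800984-40810087, plus strand), the constitutive HSP70, was 1466 CPM in wild-type and 1537 in knockout CD8 T cells and 1333 and 1440 in Tregs, log2 ratios of 0.07 (0.03 to 0.11) and 0.11 (0.07 to 0.15). Hsp90ab1 (ENSMUSG00000023944, chr17:45567775-45573271, minus strand), the constitutive HSP90, was 1285 and 1276 CPM in CD8 T cells and 1182 and 1198 in Tregs, log2 ratios of −0.01 and 0.02 whose intervals include 0. Hsp90aa1 (ENSMUSG00000021270, chr12:110690605-110702728, minus strand), the HSP90 form that stress can raise further, was 624 and 587 CPM in CD8 T cells and 497 and 527 in Tregs. Its log2 ratios were −0.09 (−0.15 to −0.03) and 0.09 (0.02 to 0.15), and their signs changed under 5 and 3 of the 15 alternatives.

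The mitochondrial pair went in opposite directions over all Tregs. Hspd1 (ENSMUSG00000025980, chr1:55077835-55088243, minus strand) encodes HSP60 and Hspe1 (ENSMUSG00000073676, chr1:55088132-55091307, plus strand) its lid HSP10. Their gene models overlap by 112 bases at their starts on opposite strands, away from the 3′ ends that were counted. In Tregs Hspd1 was 125 CPM in the wild type (118 to 133) and 163 in the knockout (154 to 172), a log2 ratio of 0.38 (0.26 to 0.49). Over all Tregs Hspe1 went the other way, with 454 CPM (440 to 468) and 398 (384 to 412), a log2 ratio of −0.19 (−0.26 to −0.12). Within classes its log2 ratio was −0.29 (−0.39 to −0.19) in positive Tregs but 0.14 (0.04 to 0.25) in the other Tregs, where it shared the direction of Hspd1. The number of Hspd1 UMIs for each Hspe1 UMI was 0.276 in wild-type Tregs (0.258 to 0.295) and 0.409 in knockout ones (0.384 to 0.436), so the Treg intervals did not overlap. Over all CD8 T cells both genes were level between genotypes, Hspd1 at 157 and 158 CPM and Hspe1 at 486 and 484. There were 0.322 and 0.326 Hspd1 UMIs for each Hspe1 UMI. Within the other CD8 T cells both were higher in the knockout, with log2 ratios of 0.27 (0.12 to 0.43) for Hspd1 and 0.12 (0.04 to 0.205) for Hspe1. In positive CD8 T cells the values were −0.01 (−0.21 to 0.19) and −0.15 (−0.28 to −0.02).

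**Figure D2:**
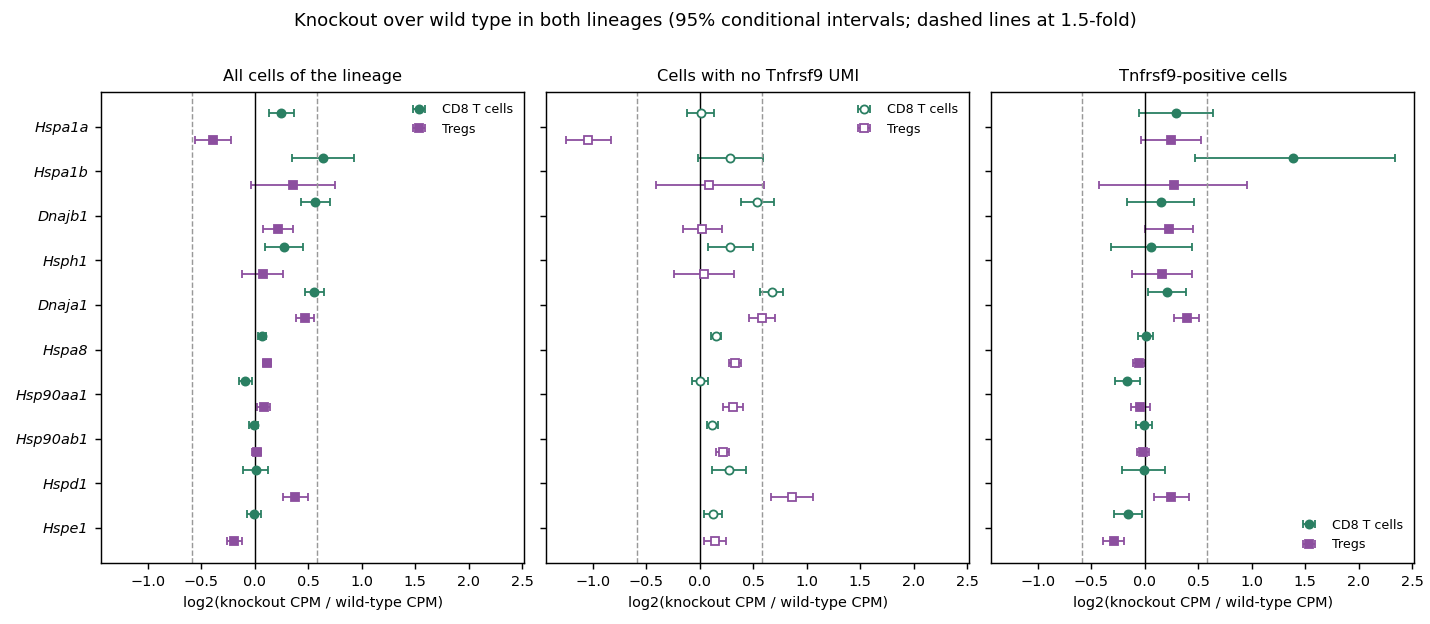
Log2 ratio of knockout over wild type for each gene (x axis, solid line at 0 and dashed lines at 1.5-fold) in all cells, in cells with no Tnfrsf9 UMI and in Tnfrsf9-positive cells (3 panels), with CD8 T cells as green circles and Tregs as purple squares. Bars are exact 95% intervals for counting error. Dnaja1 lies above 0 in both lineages in all 3 panels, and Hspa1a of the other Tregs lies at −1.04.

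The number of members past 1.5-fold between genotypes was near that of all genes. In CD8 T cells 1 member of 10 was past it upward and none downward, where 9.86% of 8591 genes with at least 100 UMIs were past it upward and 5.74% downward. In Tregs none was past it in either direction, where 4.25% of 9003 genes were past it upward and 1.21% downward. The median log2 ratio of the members was 0.16 in CD8 T cells and 0.10 in Tregs, beside 0.02 and 0.04 over all genes.

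Within Tnfrsf9 classes the genotypes differed most in the other Tregs. Among the other Tregs the log2 ratio of the summed members was 0.27, with Hspd1 at 0.86 (0.66 to 1.06; 84.6 and 154 CPM), Hspa8 at 0.33 (0.27 to 0.38; 1172 and 1472 CPM), Hsp90aa1 at 0.31 and Hsp90ab1 at 0.21 (0.15 to 0.28). Among positive Tregs the sum was −0.01, with Hspa8 at −0.05, Hsp90aa1 at −0.04, Hsp90ab1 at −0.02 and Hspe1 at −0.29. The sum in CD8 T cells was 0.16 in the other cells and −0.01 in the positive ones. The sums of all 10 were therefore level between genotypes in positive cells of both lineages and higher in the knockout in the other cells. Fewer knockout cells were positive, so a difference between genotypes within a class and a different membership of that class cannot be told apart.

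Over all depths, activated cells of both wild-type lineages held less of the inducible HSP70 and more of the mitochondrial and constitutive chaperones. Among wild-type CD8 T cells of 4000 to 8000 UMIs the mitochondrial pair was level as a sum. Hspd1 alone was still higher in positive cells there, as given with the depth values. Hspa1a was 67.5 CPM in positive and 192 in other wild-type CD8 T cells, a log2 ratio of positive over other of −1.51 (−1.75 to −1.27). In knockout CD8 T cells it was 83.0 and 193 CPM, a log2 ratio of −1.22 (−1.499 to −0.95), and in wild-type Tregs 49.5 and 126 CPM, a log2 ratio of −1.35 (−1.57 to −1.13). Knockout Tregs had 58.9 and 61.3 CPM, a log2 ratio of −0.06 (−0.34 to 0.21) whose interval includes 0. Hspa1b had log2 ratios of −2.25, −1.14, −0.89 and −0.70 in the order wild-type and knockout CD8 T cells, wild-type and knockout Tregs, and its intervals lay below 0 in all 4. Dnajb1, their J-domain partner, was −0.44, −0.83, −0.54 and −0.34 in the same order, while Hsph1 was between −0.35 and 0.16.

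Hspd1 had the highest ratio of positive over other cells in each group. It was 219 CPM in positive and 119 in other wild-type CD8 T cells, a log2 ratio of 0.88 (0.70 to 1.05), and 218 and 144 in knockout ones, a log2 ratio of 0.59 (0.41 to 0.78). In Tregs it was 151 and 84.6 CPM in the wild type, a log2 ratio of 0.83 (0.64 to 1.03), and 179 and 154 in the knockout, a log2 ratio of 0.22 (0.06 to 0.39). It was higher in positive cells in each of the 4 groups, with the smallest ratio in knockout Tregs. Hspe1, its partner, had log2 ratios of 0.35 and 0.08 in wild-type and knockout CD8 T cells and 0.59 and 0.16 in Tregs. Hsp90ab1 was higher in positive cells in all 4 as well, with 0.48, 0.36, 0.40 and 0.17.

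Hspa8 and Hsp90aa1 followed activation in 3 of the 4 groups. Hspa8 had log2 ratios of 0.26 and 0.13 in wild-type and knockout CD8 T cells and 0.29 in wild-type Tregs, but −0.09 in knockout Tregs. Hsp90aa1 was 0.28, 0.12 and 0.35 in the first 3, and in knockout Tregs positive and other cells both had 527 CPM. Dnaja1 was 0.17 and 0.16 in wild-type CD8 T cells and Tregs, but −0.29 in knockout CD8 T cells and −0.03 in knockout Tregs. The sum of all 10 was 0.28 and 0.10 in CD8 T cells and 0.31 and 0.03 in Tregs, wild type first.

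**Figure D3:**
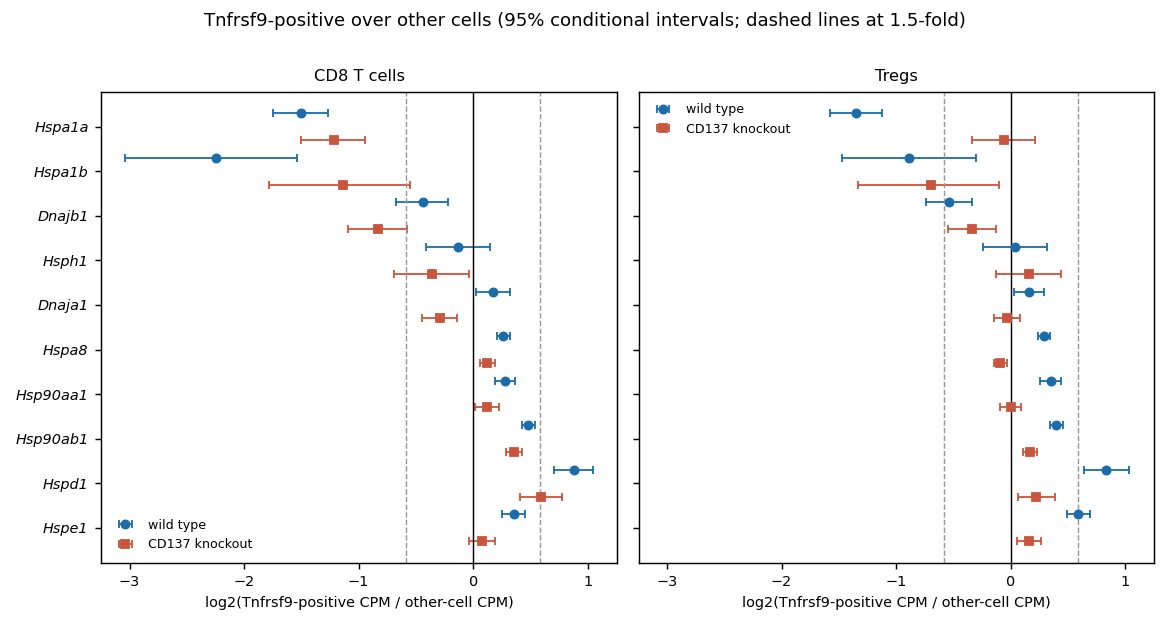
Log2 ratio of Tnfrsf9-positive over other cells for each gene (x axis, solid line at 0 and dashed lines at 1.5-fold), CD8 T cells and Tregs in 2 panels, with the wild type as blue circles and the knockout as red squares and exact 95% intervals for counting error. In the wild type Hspa1a lies at −1.51 and −1.35, and Hspd1 at 0.88 and 0.83 on the other side of 0.

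Past 1.5-fold, 1 member was higher and 2 were lower in positive wild-type CD8 T cells, where 5.85% and 7.80% of 6757 genes were. In knockout CD8 T cells 1 was higher and 3 lower, where 7.35% and 8.0% of 7146 genes were. In wild-type Tregs 2 were higher and 2 lower, where 5.37% and 5.56% of 7641 genes were. In knockout Tregs none was higher and 1 was lower, where 2.69% and 2.54% of 7520 genes were. The higher ones were Hspd1 in the first 3 groups and Hspe1 in wild-type Tregs, and the lower ones were Hspa1b in all 4, Hspa1a in the first 3 and Dnajb1 in knockout CD8 T cells.

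Levels differed with depth. Over all cells of a class, the sum of the stress-inducible members was 695 CPM in wild-type CD8 T cells of 2000 to 4000 UMIs, 471 in those of 4000 to 8000 and 222 in those of over 8000. It was 714, 551 and 247 CPM in knockout CD8 T cells, 406, 200 and 170 in wild-type Tregs and 374, 220 and 174 in knockout Tregs. The mitochondrial pair went the other way, with 476, 530 and 734 CPM in wild-type CD8 T cells and 356, 428 and 828 in wild-type Tregs. Shallow cells therefore had the higher inducible and deep cells the higher mitochondrial level in each group, and positive cells were the deeper ones.

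Within cells of 4000 to 8000 UMIs the log2 ratio of positive over other cells for Hspa1a was −0.53 in wild-type CD8 T cells, −0.52 in wild-type Tregs and 0.03 in knockout CD8 T cells. The first 2 kept their direction at a smaller size. The last was level, at 234 CPM in positive (187 to 290) and 229 in other cells (214 to 244). Knockout CD8 T cells of over 8000 UMIs had 33.7 CPM of Hspa1a in positive (23.6 to 46.7) and 97.9 in other cells (84.6 to 113). Knockout Tregs of 4000 to 8000 UMIs had 49.2 CPM of Hspa1a in positive (37.2 to 63.9) and 67.35 in other cells (55.65 to 80.8), with overlapping intervals. At 2000 to 4000 UMIs positive knockout Tregs were the higher ones, at 145 CPM (108 to 191) against 93.6 (78.9 to 110). The same held over 8000 UMIs, at 44.8 CPM (34.4 to 57.35) against 27.6 (20.65 to 36.1). The intervals overlapped at these depths too. Over all depths both classes were nearly level. Within cells of 4000 to 8000 UMIs Dnajb1 was 0.01 in wild-type Tregs. None of the members passed 1.5-fold there in wild-type Tregs or knockout CD8 T cells. Hspd1 was 0.25 there in knockout CD8 T cells and 0.43 in wild-type Tregs, smaller than over all depths. In these knockout CD8 T cells it was 159 CPM in positive (120 to 206) and 133.5 in other cells (122 to 145). In these wild-type Tregs it was 91.7 (78.9 to 106) and 68.0 CPM (53.8 to 84.7). The intervals overlapped in both. In wild-type CD8 T cells of that depth the mitochondrial pair summed to 525 CPM in positive (462 to 594) and 531 in other cells (501 to 562). A difference in the sum was thus not seen. Hspd1 alone was still higher there, at 153 CPM (120 to 192) against 91.8 (79.6 to 105), while Hspe1 turned to −0.24. At that depth Hspa8 was 0.02 and the sum of all 10 was 0.03. Wild-type CD8 T cells of over 8000 UMIs had 846 CPM of the pair in positive (808 to 886.5) and 609 in other cells (574 to 645). In wild-type Tregs of 4000 to 8000 UMIs the pair was still higher in positive cells, at 473 (443 to 504) against 351 CPM (318 to 387). Dnaja1 was higher in the knockout at each depth, with 228 and 484 CPM in CD8 T cells of 2000 to 4000 UMIs, 219 and 362 in those of 4000 to 8000 and 233 and 268 in those of over 8000. In Tregs it was 248 and 413, 229 and 308, and 248 and 314 CPM. The cytosolic constitutive members summed to 2910 and 3588, 2964 and 3540, and 4085 and 4034 CPM in CD8 T cells of these depths, and to 2486 and 3031, 2765 and 2797, and 4074 and 4381 in Tregs. They were higher in the knockout in the shallowest cells of both lineages, and in the deepest cells only of Tregs.

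**Figure D4:**
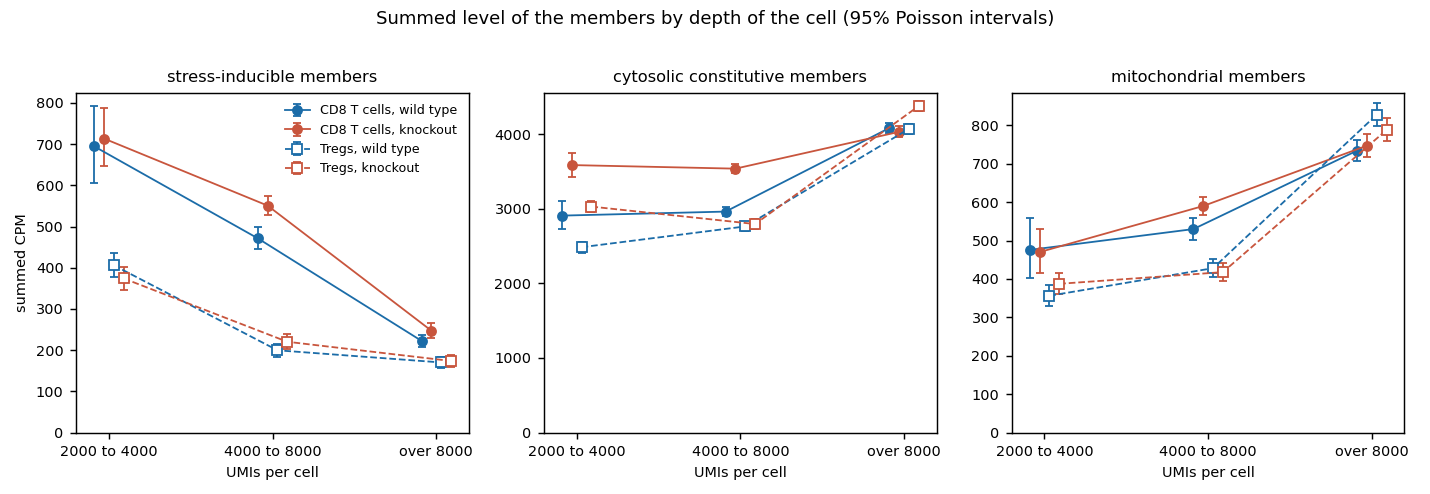
Summed level (CPM, y axis from 0) of the stress-inducible, the cytosolic constitutive (Dnaja1, Hspa8, Hsp90aa1 and Hsp90ab1) and the mitochondrial members in cells of 2000 to 4000, 4000 to 8000 and over 8000 UMIs, 1 panel each, with wild type in blue, knockout in red, CD8 T cells as filled circles with solid lines and Tregs as open squares with dashed lines. Bars are exact Poisson 95% intervals. The inducible sum is lower and the mitochondrial sum higher in deeper cells of all 4 groups, and the cytosolic constitutive sum of CD8 T cells of 4000 to 8000 UMIs is 2964 for wild-type and 3540 for knockout cells.

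CD8 T cells held more of most members than Tregs of the same library. Past 1.5-fold, Hspa1a and Hspa1b were higher in CD8 T cells in both genotypes and no member was lower, where 6.21% of 8824 genes were higher and 15.4% lower in the wild type, and 5.37% of 8899 were higher and 13.8% lower in the knockout. The log2 ratio of CD8 T cells over Tregs was 0.88 for Hspa1a and 0.97 for Hspa1b in wild-type cells and 1.51 and 1.253 in knockout cells. The inducible HSP70 genes were thus the members that most separated the lineages. Dnajb1 had 0.19 and 0.54, Hsph1 0.35 and 0.55, and Hsp90aa1 0.33 and 0.15. Dnaja1 was nearly level, at −0.09 and −0.00. The median over all genes was −0.10 and −0.15, so values near 0 lie above the middle of all genes. The other 4 members had log2 ratios from 0.10 to 0.32 in the wild type, and from −0.05 to 0.28 in the knockout.

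Levels of the inducible HSP70 genes ranged most over the 8 groups. The highest group exceeded the lowest by 5.77-fold for Hspa1b and 3.89-fold for Hspa1a, by 2.59-fold for Hspd1 and 2.16-fold for Dnajb1, and by 1.41- to 1.65-fold for the other 6. For Hspa1a the other CD8 T cells of both genotypes came first and did not differ beyond counting error. The other wild-type Tregs came next and were below them, and the remaining 5 groups, each at 83.0 CPM or less, did not differ from their neighbours among these 5. For Hspd1 the positive CD8 T cells of both genotypes came first without differing, followed by the positive knockout Tregs, and the other wild-type Tregs were lowest.

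Transcripts of the inducible HSP70 were gathered in few cells. The 5% of cells with the most Hspa1a UMIs held 53.0% of them in wild-type and 44.8% in knockout CD8 T cells and 61.9% and 70.4% in Tregs. For Hspa8 the same share of cells held between 19.0% and 27.4% in the 4 groups. Hspa8 had many more UMIs, 11851 against 704 of Hspa1a in wild-type Tregs. Few UMIs raise such a share by counting alone, so the 2 genes are not directly comparable in it. A single cell held up to 28 Hspa1a UMIs. At 2000 UMIs per cell, a UMI of Hspa1a or Hspa1b was seen in 18.2% of wild-type and 22.7% of knockout CD8 T cells and, for Tregs, in 12.7% and 10.6%, where unthinned shares were 31.4%, 38.2%, 20% and 17.5%.

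Except in knockout Tregs, cells with such a UMI also held more of the other inducible members. At 2000 UMIs per cell, Dnajb1 was higher in them than in cells without one by a log2 ratio of 0.81 (0.35 to 1.26) in wild-type and 0.87 (0.58 to 1.16) in knockout CD8 T cells and of 1.30 (0.95 to 1.65) in wild-type Tregs, and in knockout Tregs the value was 0.29 (−0.18 to 0.73). Hsph1 gave 0.80, 0.76 and 1.36, and 0.64 (−0.05 to 1.28) in knockout Tregs. The other 8 members summed differed less, by 0.14, 0.21, 0.15 and 0.16. In knockout Tregs the members whose intervals lay above 0 were Hsp90aa1, at 0.55 (0.32 to 0.78), and Hspa8, at 0.22 (0.07 to 0.36). Neither was particular to that group. Hsp90aa1 was 0.39 (0.17 to 0.61) in wild-type and 0.25 (0.07 to 0.43) in knockout CD8 T cells and 0.30 (0.07 to 0.52) in wild-type Tregs. Hspa8 was 0.20 (0.05 to 0.35) and 0.12 (0.004 to 0.23) in CD8 T cells and 0.11 (−0.03 to 0.25) in wild-type Tregs.

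The immediate early genes Fos and Jun, which encode AP-1 factors that stimulation and tissue handling both induce, were higher in the same cells. The log2 ratio was 0.79, 0.64, 1.02 and 0.74 for Fos and 0.86, 0.74, 1.00 and 0.66 for Jun, in the order wild-type and knockout CD8 T cells, wild-type and knockout Tregs. Tnfrsf9 was lower in them in the first 3 groups, with −1.43, −1.63 and −0.82, and in knockout Tregs it was −0.20 (−0.79 to 0.35). These cells were also shallower before thinning, with medians of 5420, 5121, 3656 and 3745 UMIs against 6411, 5466, 4686 and 4502 in the cells without. The list of immediate early genes stood at 2150 CPM in wild-type and 3350 in knockout CD8 T cells and at 3208 and 3379 in Tregs. Of its 19 genes tested, 11 were higher past 1.5-fold in knockout CD8 T cells, beside 9.86% of all genes. The inducible sum was higher in those cells too, with 1 of the 4 inducible members past 1.5-fold. In knockout Tregs 1 of the list's 18 genes tested was lower and none was higher, beside 1.21% and 4.25% of all genes. Its part in the inducible levels was not tested.

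**Figure D5:**
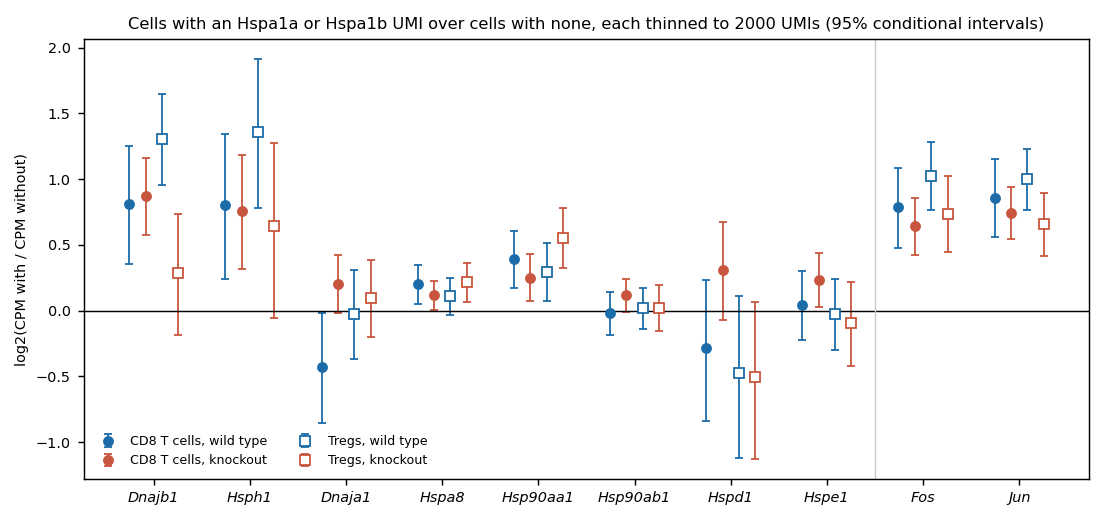
Log2 ratio of the level in cells with at least 1 Hspa1a or Hspa1b UMI over cells with none (y axis), each cell thinned to 2000 UMIs, for the other 8 members and for Fos and Jun, with CD8 T cells as filled circles, Tregs as open squares, wild type in blue and knockout in red, and exact 95% intervals for counting error. Dnajb1, Hsph1, Fos and Jun lie above 0 in each group, at 0.29 to 1.36, with intervals that include 0 for Dnajb1 and Hsph1 in knockout Tregs.

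In the rest of the chaperone network few genes were past 1.5-fold between genotypes. Among all genes 9.86% were higher and 5.74% lower in knockout CD8 T cells, and 4.25% and 1.21% in knockout Tregs, so short lists can hold few. Of 23 other cytosolic chaperones and partners tested, 1 was higher past 1.5-fold in knockout CD8 T cells and 2 in knockout Tregs, with none lower, and the medians were 0.00 and 0.09. The same gene led in both lineages: Dnajb4, another J-domain partner of HSP70, was 15.3 CPM in wild-type and 30.1 in knockout CD8 T cells, a log2 ratio of 0.98 (0.65 to 1.32), and 11.6 and 25.6 in Tregs, a log2 ratio of 1.15 (0.80 to 1.5). Hspa4l, an HSP110 relative, was 0.44 and 0.61, and Chordc1, an HSP90 partner, 0.40 and 0.42. None of the 7 measured subunits of TRiC, the chaperonin that folds actin and tubulin, was past 1.5-fold between genotypes, and none of 6 heat shock factors and regulators was. Of 15 chaperones of the endoplasmic reticulum, 1 was higher and 2 were lower in CD8 T cells and 1 was higher in Tregs. Median log2 ratios in CD8 T cells and Tregs were −0.18 and −0.04 for TRiC and −0.28 and −0.05 for the endoplasmic reticulum list. Those of all genes were 0.02 and 0.04. Of 9 other mitochondrial chaperones and proteases none was past 1.5-fold, and Hspa9, the mitochondrial HSP70, was 0.28 and 0.22.

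In positive wild-type cells most of these lists had medians above 0, but the heat shock factors and regulators had −0.16 in CD8 T cells and −0.20 in Tregs. TRiC had medians of 0.30 in CD8 T cells and 0.44 in Tregs, and 0.27 and 0.06 in the knockout, beside all-gene medians between −0.01 and 0.03. The endoplasmic reticulum list had 0.38 and 0.30 in wild-type and 0.19 and 0.10 in knockout cells. Among named genes in wild-type CD8 T cells and Tregs, Cct3, a TRiC subunit, was 0.49 and 0.64 and Hspa9 0.53 and 0.55, while Dnajb4 was −0.90 and −0.75. Past 1.5-fold, 1 TRiC subunit of 7 was higher in wild-type Tregs and none in the other 3 groups.

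The genes whose levels over the 8 groups were most like the sum of the 10 members were Nop56, Npm1, Dkc1, Fbl, Nasp, Polr2l, Rps26, Sept11, Rps2 and Rsl1d1. Pearson's r of log2(CPM + 10) with the sum was between 0.93 and 0.96 for them, over 8 groups that come from only 2 libraries and differ in depth, among 3145 genes with a mean of at least 50 CPM. Nop56, Dkc1 and Fbl encode core proteins of the nucleolar particles that modify RNA, Npm1 a nucleolar chaperone and Nasp a histone chaperone.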

How the data were processed

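The authors deposited raw counts, that is UMIs per gene (27998 genes) for every barcode that Cell Ranger 7.0.0 called as a cell, for 2 Chromium 3′ version 2 libraries, and the submitters' notes name mm10 (GRCm38). The counts had not been normalized or filtered for quality. The treatment of intronic reads is not given in the sources used here. Other libraries of the study were not analysed here.

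With Python 3.11.15, pandas 2.3.3, numpy 2.4.6 and scipy 1.17.1, raw UMIs were summed over the cells of each lineage, genotype and Tnfrsf9 class and divided by all UMIs of those cells to give CPM. Kept cells of all classes summed to 17750269 wild-type and 17808848 knockout UMIs. CPM carry exact Poisson, shares exact binomial (Clopper-Pearson) and log2 ratios exact conditional 95% intervals, all for counting error only. With 1 library per genotype no test was run. A gene was called past 1.5-fold in either direction, and the background was all genes with at least 100 UMIs in both groups together. Thinning drew 2000 UMIs per cell without replacement. No cells were clustered and no doublet caller was run. Cells with over 5000 genes were left out. edgeR 4.0.16 in R 4.3.3 gave TMM factors for 1 alternative scaling. Calculations were tested on simulated data.

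All 10 members are named in every comparison, for other lists up to 4 genes with the largest absolute log2 ratio per comparison, and as most alike the 10 genes with the highest Pearson r. Fos, Jun and Tnfrsf9 beside the inducible members were named outside that rule, after their values were seen. The resting-cell list was shortened after its values were seen, by an item not reported here. The members and lists were chosen with earlier results of these data known. Alternatives varied the scaling, depth, cell filters, lineage and activation rules and the fold. The depth band for genotype ratios, the resting-cell filter for activated cells and the marker filter without Cst3 and Pecam1 were chosen after seeing the data.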

Additional observations from a re-analysis of the deposited data

Results flagged for a closer look

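Members whose ratios pointed in opposite directions in the groups compared, each beyond counting error, were looked at again. The differences between groups were not tested, since each genotype is 1 library. Hspa1a was higher in knockout CD8 T cells, with a log2 ratio of knockout over wild type of 0.25, and lower in knockout Tregs, with −0.39. Hsp90aa1 was lower in knockout CD8 T cells, with −0.088, and higher in knockout Tregs, with 0.086. The log2 ratio of Tnfrsf9-positive over other CD8 T cells for Dnaja1 was 0.17 in wild-type and −0.29 in knockout cells. For Hspa8 it was 0.29 in wild-type Tregs, −0.090 in knockout Tregs and 0.13 in knockout CD8 T cells.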

How the results depend on the processing

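Of 1188 member ratios under alternatives, 821 moved by less than counting error, 366 by more, and 1 called ratio changed sign. This was Hspa1a in positive over other knockout CD8 T cells, −1.22 over all depths and 0.034, which is near 0, at 4000 to 8000 UMIs per cell. Over 8000 UMIs positive cells were again lower, at 33.7 against 97.9 CPM. Of 128 counts of members, 97 stayed within 1.5 times. The count past 1.5-fold in CD8 T cells, knockout over wild type, was 1. It became 0 with TMM factors, a fold of 2 or without cells of the resting list, 2 with equal weight per cell, the stricter gene limits or without cells with markers of other types, and 3 without mitochondrial and ribosomal genes in the total, after thinning or at the smaller fold. In Tregs it was 0, and became 1 with equal weight, the other lineage rule or without resting-list cells, 2 in Tnfrsf9-negative cells, 3 after thinning and 4 at the smaller fold. For positive over other cells, wild-type CD8 T cells had 3, and 6 at the smaller fold. Knockout CD8 T cells had 4, and 2 at a fold of 2 and 0 at 4000 to 8000 UMIs. Wild-type Tregs had 4, and 7 at the smaller fold, 1 at a fold of 2 and 0 at 4000 to 8000 UMIs. Knockout Tregs had 1, and 0 with the stricter limits, without other-type cells or at a fold of 2, 2 at the smaller fold, and 3 with at least 2 Tnfrsf9 UMIs. Of all genes at the smaller fold, 20.5% were higher and 18.7% lower in wild-type and 21.8% and 19.6% in knockout CD8 T cells. It was 17% and 17.8% in wild-type Tregs and 10.3% and 10.9% in knockout Tregs. At a fold of 2, knockout CD8 T cells had 1.69% and 2.36%. Wild-type Tregs had 1.1% and 0.681% there and knockout Tregs 0.372% and 0.319%. For CD8 T cells over Tregs the wild type had 2, and 5 at the smaller fold and 0 at a fold of 2, and the knockout had 2, and 4 with TMM factors, without mitochondrial and ribosomal genes or at the smaller fold. Of all genes, 13.2% were higher and 29% lower at the smaller fold in the wild type, and 10.8% and 29.8% in the knockout. At a fold of 2 it was 2.65% and 6.91% in the wild type. Shares of all genes under the other alternatives are not given here. The causes were not tested. After thinning 8 members had a higher share of cells with a UMI in the knockout in each lineage. Such a count over all genes is not given here, so the 8 cannot be set against it. By summed level Hspa1a and Hspe1 were lower in knockout Tregs, with log2 ratios of −0.39 and −0.19. No paired analysis was possible because each genotype is 1 library. Depth limits Hspa1b most, with 104 UMIs in wild-type Tregs.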

Other observations

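Cells outside both lineage classes held similar sums of the 10 members. The 271 such cells of each library had 4815 CPM in the wild type (4715 to 4916) and 4634 in the knockout (4534 to 4736). The 65 wild-type and 55 knockout cells with over 5000 genes, which were not kept, had the highest sums, 7504 CPM (7388 to 7621) and 7952 (7823 to 8083). In them the mitochondrial pair was at 1626 and 1663 CPM and the stress-inducible members at 170 and 199 CPM.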
